A study of Mus musculus with 24 samples.

Results

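Voltage-gated sodium channels let sodium into a neuron when its membrane is depolarised and so start and carry the action potential. A channel is built of 1 large alpha subunit, which forms the pore, and smaller beta subunits, which change its gating and its delivery to the membrane. Sensory neurons of the dorsal root ganglion (DRG) use several alpha subunits side by side. *Scn10a* (Nav1.8) and *Scn11a* (Nav1.9) encode channels that resist tetrodotoxin and are typical of nociceptors, whereas *Scn1a* (Nav1.1), *Scn3a* (Nav1.3), *Scn8a* (Nav1.6) and *Scn9a* (Nav1.7) encode channels that tetrodotoxin blocks. *Scn2b*, *Scn3b* and *Scn4b* encode beta subunits.

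These 9 genes were selected by name, as every probe that was no control spot and whose gene name in the array files was 1 of the 9. Of them 8 had probes, 15 probes in all, among 27398 gene names and 41174 probes. *Scn4b* was not analysed here. Each gene is given by its brightest probe over the 24 samples, and its other probes are described beside it. For 7 of the 8 genes that probe was marked as well above background in all 24 samples, whereas for *Scn3a* it was so in 12 of 24.

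Adult male C57BL/6J mice without *Nfil3* (*Nfil3* -/-, KO) and their *Nfil3* +/+ littermates (WT) received a transection of the left sciatic nerve, after which the nerve ends were sutured together. NFIL3 is a transcriptional repressor, and the study asked how its deletion alters the response of DRGs to a nerve lesion. L4 and L5 DRGs of the lesioned side were taken at day 2 or day 5, and the control DRGs came from the non-injured side of operated mice, so that anaesthesia and the analgesic Temgesic, given daily until 3 days after surgery, may be shared by all groups. There were 6 groups of 4 samples: WT control, WT day 2, WT day 5, KO control, KO day 2 and KO day 5. The KO mice lacked *Nfil3* in the whole body from the germline on, since they descended from floxed mice crossed with mice that express Cre under a human CMV promoter, with the colony backcrossed to C57BL/6J. The titles give day 0 for the controls, although these came from the non-injured side of operated mice. The time after surgery at which they were taken, the number of mice per sample and whether control and lesioned DRGs came from the same mouse are not given in the sources used here. The labels call the tissue DRG neurons, but whole ganglia were dissected.

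Probes are 60 bases long, and positions are those the array annotation gives in mm9. The probes of *Scn10a* (A_52_P616425, chr9:119518293-119518352, minus strand), *Scn11a* (A_51_P287823, chr9:119663097-119663156, minus strand), *Scn8a* (A_51_P125695, chr15:100870822-100870881, plus strand) and *Scn3b* (A_52_P228899, chr9:40090063-40090122, plus strand) are printed as examples for the genes with the main results. That of *Scn11a* is its brightest probe, whereas those of *Scn10a*, *Scn8a* and *Scn3b* are dimmer probes, so the values that stand for these 3 genes come from other probes, which are not printed. Exon and UTR positions were not determined, since no mm9 gene annotation was used here. The brightest *Scn10a* probe (A_51_P311105) has no position in the array annotation.
Scn10a: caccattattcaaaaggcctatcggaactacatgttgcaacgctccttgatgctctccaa
Scn11a: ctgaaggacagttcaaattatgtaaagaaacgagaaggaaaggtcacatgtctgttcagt
Scn8a: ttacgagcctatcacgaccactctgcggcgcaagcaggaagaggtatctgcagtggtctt
Scn3b: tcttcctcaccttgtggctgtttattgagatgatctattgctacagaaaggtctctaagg

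The brightest probes of *Scn1a* and *Scn3a* are alike and share an unbroken run of 29 bases, whereas the next longest run shared by probes of different subunit genes was 9 bases over 96 pairs. Whether RNA of one gene contributed to the other's probe was not tested.

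Some samples stood apart before any comparison of the channel genes. The mean log2 intensity of *Nfil3* was 8.73 in the WT controls, 10.60 in WT day 2 and 10.99 in WT day 5, and 4.73, 4.71 and 4.47 in the matching KO groups, but KO control replicate 4 read 7.66 where the other KO controls read 3.03 to 4.40. Another label field gives day 5 for that sample. In 4 of the 8 control samples the other channel of the array held a lesion sample, and these 4 (WT control replicates 2 and 4, KO control replicates 1 and 4) had more signal of genes induced by axon injury. *Atf3*, a transcription factor of injured neurons, was at 9.11 to 10.06 in these 4 and at 7.32 to 7.77 in the other 4, against 13.03 to 14.19 in the lesion samples. In KO day 2, replicates 2 and 3 lay near the controls for several channel genes and replicates 1 and 4 did not. Results are therefore also given without the samples concerned where their removal changed a call. The defining markers of sensory neurons were bright in all samples, whereas *Acta1*, an actin of skeletal muscle, reached 10.69 in KO day 5 replicate 1, 9.15 in KO day 2 replicate 4 and 8.19 in WT control replicate 1 and lay between 5.42 and 7.30 in the others.

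Sodium channel transcripts were lower after the lesion in both genotypes. At day 5, averaged over WT and KO, 7 of the 8 genes fell and none rose, with falls from 0.62 for *Scn9a* to 1.40 for *Scn11a* on the log2 scale. The exception was *Scn3a*, which was near background. At day 2 in the same average 6 of 8 fell. Over all gene names 13% were lower at day 5 and 12.7% at day 2 at the same threshold, an adjusted p of 0.05 in limma over all probes. This and the later shares of all names count dim genes too. The brightest probe was well above background in all 24 samples for 14493 of the 27398 names. No share for genes of like brightness is given here. The median difference of the 8 genes was -0.80 at day 5 and -0.72 at day 2, beside -0.03 and -0.02 over all genes. These are intensities of whole ganglia, in which fewer cells of a type and less RNA per cell cannot be told apart.

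**Figure D1:**
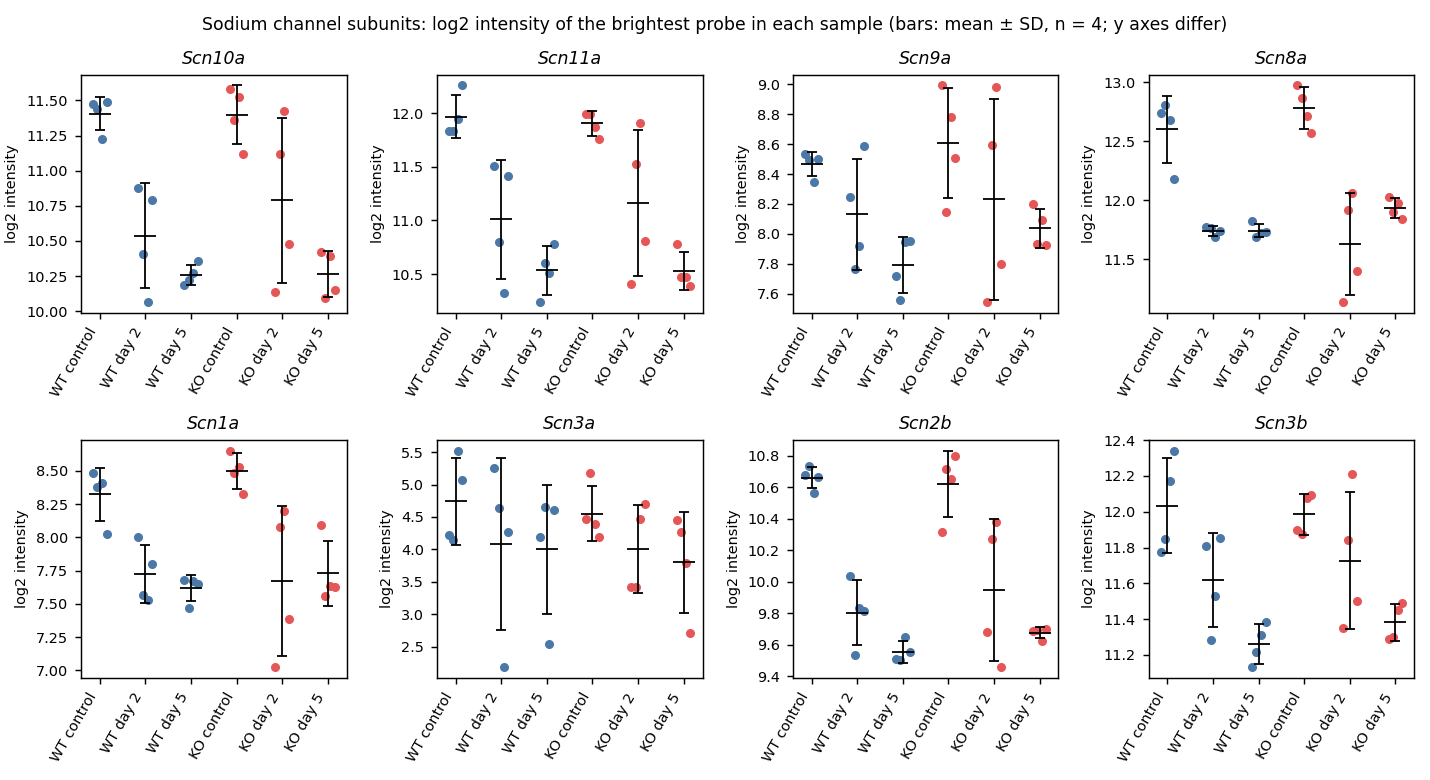
Log2 intensity of the brightest probe of 8 sodium channel genes in each of the 24 samples (y axes, which differ between panels) by group (x axes, WT in blue, KO in red), with bars for the mean ± SD of 4 samples. In WT every day 5 sample is below every control for 7 genes, where this holds for 10.9% of all gene names. In KO it is so for 6 genes, beside 11% of all names. KO day 2 is spread out, from 10.14 to 11.42 for *Scn10a*.

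*Scn10a*, the tetrodotoxin-resistant channel that carries most of the action potential upstroke in nociceptors, was at 11.47, 11.44, 11.23 and 11.49 in the 4 WT controls. It was at 10.88, 10.41, 10.07 and 10.79 in WT day 2 and at 10.19, 10.23, 10.27 and 10.35 in WT day 5. Every lesion sample of WT lay below every WT control, and the WT day 5 samples had a mean of 10.26 with an SD of 0.07. In KO the controls were at 11.58, 11.36, 11.53 and 11.12, the day 2 samples at 10.14, 11.12, 11.42 and 10.48, and the day 5 samples at 10.42, 10.09, 10.39 and 10.15. KO day 2 overlapped with the KO controls and KO day 5 did not.

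Tested with limma, *Scn10a* fell by 0.87 ± 0.21 (SE) at day 2 in WT, which is 1.83-fold lower (adjusted p = 0.012), and by 1.15 ± 0.21 at day 5 (2.21-fold, adjusted p = 0.00092). In KO the difference was -0.61 ± 0.21 at day 2 (adjusted p = 0.075), and the gene fell by 1.14 ± 0.21 at day 5 (2.20-fold, adjusted p = 0.0011). The difference at day 2 in KO passed with no background correction, a filter on dim probes, averaged probes or an intensity trend (-0.59 to -0.69, adjusted p = 0.037 to 0.049). The other probe of *Scn10a* passed the test in KO at day 2 also, where it fell by 0.78 (adjusted p = 0.022). At day 5 this probe fell by 1.17 in WT and by 1.19 in KO.

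*Scn11a*, whose channel opens near the resting potential and sets the excitability of nociceptors, had the largest fall of the 8 genes at day 5. The WT controls were at 11.84, 11.83, 11.94 and 12.26, the WT day 2 samples at 11.50, 10.80, 10.32 and 11.41 and the WT day 5 samples at 10.24, 10.61, 10.51 and 10.78. No WT lesion sample reached a WT control. The KO controls were at 11.989, 11.996, 11.870 and 11.758, the KO day 2 samples at 10.40, 11.52, 11.91 and 10.81, and the KO day 5 samples at 10.78, 10.47, 10.47 and 10.38. Again only KO day 2 overlapped with its controls, through replicate 3.

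The fall of *Scn11a* in WT was 0.96 ± 0.27 (SE) at day 2 (1.94-fold, limma adjusted p = 0.025) and 1.43 ± 0.27 at day 5 (2.70-fold, adjusted p = 0.00088). In KO the difference at day 2 was -0.74 ± 0.27 (adjusted p = 0.081) and the fall at day 5 was 1.37 ± 0.27 (2.59-fold, adjusted p = 0.0014). Without the 4 controls that shared an array with a lesion sample, *Scn10a* and *Scn11a* no longer passed at day 2 in WT, at -0.81 (adjusted p = 0.12) and -0.88 (adjusted p = 0.20), while both passed at day 5 in either genotype. The call in WT at day 2 was also lost for *Scn10a* without WT day 2 replicate 3 (-0.71, adjusted p = 0.051), and for *Scn11a* when any 1 of WT day 2 replicates 2 and 3 and WT control replicates 3 and 4 was left out (-0.73 to -0.97, adjusted p = 0.055 to 0.10), while in KO at day 2 both passed without KO day 2 replicate 3 (-0.82 and -0.99). With the array partner as a block *Scn11a* passed in KO at day 2 (-0.74, adjusted p = 0.042), and so it did with an intensity trend (-0.74, adjusted p = 0.045).

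*Scn8a* encodes the main sodium channel at the nodes of Ranvier of myelinated fibres. It was at 12.74, 12.81, 12.68 and 12.18 in the WT controls, at 11.78, 11.76, 11.69 and 11.74 at day 2 and at 11.82, 11.69, 11.73 and 11.73 at day 5. All WT lesion samples lay below all WT controls, and those of one day were close to each other, with an SD of 0.04 at day 2 and 0.06 at day 5. In KO the controls were at 12.97, 12.87, 12.71 and 12.57, the day 2 samples at 11.14, 11.92, 12.07 and 11.40 and the day 5 samples at 12.03, 11.90, 11.97 and 11.84. All KO lesion samples lay below all KO controls.

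The fall of *Scn8a* passed the limma test in all 4 comparisons with control. It was 0.86 ± 0.16 (SE) at day 2 in WT (1.82-fold, adjusted p = 0.0014), 0.86 ± 0.16 at day 5 in WT, 1.15 ± 0.16 at day 2 in KO (2.22-fold, adjusted p = 7.0e-05) and 0.84 ± 0.16 at day 5 in KO (adjusted p = 0.0014). The second probe of the gene, which was dimmer, fell by 0.59 to 0.98 in the same comparisons and passed in each, with an adjusted p of 0.049 at day 2 in WT.

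*Scn1a*, which serves in large-diameter neurons and in mechanical nociceptors, was lower at both days in both genotypes. Its WT controls ranged from 8.03 to 8.48, WT day 2 from 7.532 to 7.9997 and WT day 5 from 7.47 to 7.68. In KO the controls ranged from 8.33 to 8.65, day 2 from 7.03 to 8.20 and day 5 from 7.56 to 8.10. Within each genotype the lesion samples lay below the controls at both days. The difference was -0.60 ± 0.20 (SE) at day 2 in WT (limma adjusted p = 0.065), and the gene fell by 0.70 ± 0.20 at day 5 in WT (adjusted p = 0.022), by 0.82 ± 0.20 at day 2 in KO (adjusted p = 0.010) and by 0.77 ± 0.20 at day 5 in KO (adjusted p = 0.014). The second *Scn1a* probe was near background, with 0 of 24 samples marked well above it, and passed no test. With both probes averaged the gene passed in no comparison. Without the 4 controls on arrays with lesion samples, which leaves fewer controls per genotype, these calls were lost while the differences were no smaller. They were -0.83 at day 5 in WT (adjusted p = 0.071), -0.83 at day 2 in KO (adjusted p = 0.077) and -0.77 at day 5 in KO (adjusted p = 0.10). The call at day 5 in WT was also lost without any 1 of WT control replicates 1, 2 and 3 and WT day 5 replicate 2 (adjusted p = 0.056 to 0.064), and the difference at day 2 in WT passed without WT control replicate 4, KO day 2 replicate 1 or KO day 2 replicate 3. That difference also passed with no or normexp background correction, a filter on dim probes or an intensity trend (-0.45 to -0.60, adjusted p = 0.033 to 0.040).

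*Scn9a*, the channel that amplifies slow depolarisations in nociceptors, had the smallest differences from control among the bright alpha subunits. It was at 8.53, 8.49, 8.35 and 8.50 in the WT controls, at 8.25, 7.76, 7.92 and 8.59 in WT day 2 and at 7.72, 7.56, 7.94 and 7.95 in WT day 5. WT day 2 overlapped with control and WT day 5 did not. In KO the controls were at 8.99, 8.15, 8.78 and 8.51, the day 2 samples at 7.55, 8.60, 8.98 and 7.80 and the day 5 samples at 8.20, 7.93, 8.09 and 7.92, so that both KO lesion groups overlapped with control. No comparison with control within a genotype passed in limma, with differences of -0.34 (day 2, WT), -0.68 (day 5, WT, adjusted p = 0.085), -0.38 (day 2, KO) and -0.57 (day 5, KO, adjusted p = 0.17). Averaged over the genotypes it fell by 0.62 ± 0.18 (SE) at day 5 (1.54-fold, adjusted p = 0.013), a call that was lost without the 4 controls that shared an array with a lesion sample (-0.54, adjusted p = 0.14). At day 5 in WT it passed with slide as a block (-0.75, adjusted p = 0.027) and with array as a random block (-0.70, adjusted p = 0.036). With an intensity trend it passed there too (-0.68, adjusted p = 0.049). It also passed there without KO day 2 replicate 1 or 3, which are in the fit only through the shared estimate of spread. At day 2 in the average it passed without KO day 2 replicate 3 (-0.48, adjusted p = 0.029).

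*Scn3a*, the channel of embryonic neurons, was dim. Its brightest probe ranged from 2.18 to 5.52 over the 24 samples. It was marked well above background in 2 of the WT controls, 2 of 4 in WT day 2, 3 of 4 in WT day 5, 2 of 4 KO controls, 1 of 4 in KO day 2 and 2 of 4 in KO day 5. The groups overlapped in every comparison. The difference from control at day 5 was -0.74 in WT, with a 95% interval of -1.95 to 0.47, and -0.75 in KO, with an interval of -1.97 to 0.46, and neither passed. A rise of up to 0.47 on the log2 scale therefore lies within the interval in WT. The other probes of *Scn3a* were marked so in 2 and 1 of 24 samples.

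*Scn2b*, a beta subunit that binds the alpha subunit through a disulfide bond, had the smallest p at day 5. The WT controls were at 10.68, 10.73, 10.57 and 10.67, the WT day 2 samples at 10.03, 9.54, 9.84 and 9.81, and the WT day 5 samples at 9.51, 9.50, 9.65 and 9.56. The KO controls were at 10.32, 10.72, 10.65 and 10.80, the KO day 2 samples at 9.68, 10.27, 10.38 and 9.46, and the KO day 5 samples at 9.69, 9.69, 9.62 and 9.70. All lesion samples lay below the controls of their genotype, except that KO day 2 replicate 3 lay above KO control replicate 1. The limma test passed in all 4 comparisons, with falls of 0.86 ± 0.16 (SE, day 2, WT, adjusted p = 0.0012), 1.11 ± 0.16 (day 5, WT, 2.16-fold, adjusted p = 6.1e-05), 0.67 ± 0.16 (day 2, KO, adjusted p = 0.0084) and 0.94 ± 0.16 (day 5, KO, 1.93-fold, adjusted p = 0.00038).

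*Scn3b*, a beta subunit that binds without a covalent bond, fell at day 5. Its WT controls were at 11.78, 11.85, 12.17 and 12.34, WT day 2 at 11.81, 11.29, 11.53 and 11.85 and WT day 5 at 11.13, 11.22, 11.31 and 11.38. In KO the controls ranged from 11.87 to 12.09, day 2 from 11.35 to 12.21 and day 5 from 11.29 to 11.49. Day 5 lay below control without overlap in both genotypes, and day 2 overlapped in both. The fall at day 5 was 0.77 ± 0.17 (SE) in WT (1.71-fold, limma adjusted p = 0.0029) and 0.60 ± 0.17 in KO (1.52-fold, adjusted p = 0.020), whereas the differences at day 2, -0.42 in WT (adjusted p = 0.13) and -0.26 in KO (adjusted p = 0.37), did not pass. The other 2 probes of the gene gave -0.70 and -0.72 at day 5 in WT, where both passed, and -0.73 (adjusted p = 0.029) and -0.44 (adjusted p = 0.14) at day 5 in KO. Averaged over the genotypes *Scn3b* fell by 0.34 at day 2 (adjusted p = 0.045), a call that was lost when any 1 of 17 samples was left out (adjusted p of 0.050 to 0.105). It was also lost with slide as a block (adjusted p = 0.071), with array as a random block (0.112) and without the 4 controls on arrays with lesion samples (0.207). The software's processed signals (adjusted p = 0.073) and loess with Aquantile normalization (adjusted p = 0.051) lost it as well. At day 5 the calls were lost without the 4 controls on arrays with lesion samples (-0.71, adjusted p = 0.054 in WT and -0.59, adjusted p = 0.12 in KO). In KO the call was also lost when any 1 of KO day 5 replicates 1 and 2 and KO control replicates 3 and 4 was left out (0.051 to 0.058).

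**Figure D2:**
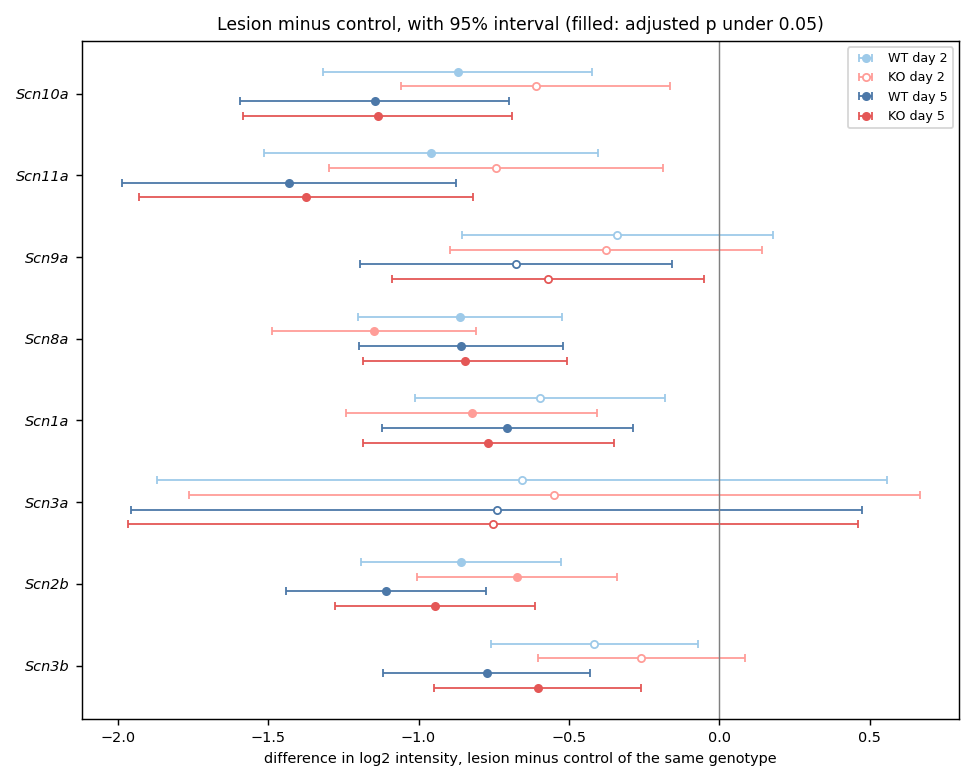
Difference in log2 intensity between lesion and control DRGs of the same genotype (x axis) for the brightest probe of 8 sodium channel genes, with the 95% interval, for day 2 (light) and day 5 (dark) in WT (blue) and KO (red). Filled points have a limma adjusted p under 0.05. Every point lies below 0, and the intervals of *Scn3a* are the widest and include 0.

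By comparison, 4 of 8 genes passed at day 2 in WT (*Scn10a*, *Scn11a*, *Scn8a* and *Scn2b*) where 5.74% of all gene names were called lower. At day 5 in WT 6 passed, beside 7.3% of all names. In KO 3 passed at day 2 (*Scn1a*, *Scn8a* and *Scn2b*) beside 6.29%, and 6 at day 5 beside 6.52%. The 6 genes of day 5 were the same in WT and KO, *Scn10a*, *Scn11a*, *Scn1a*, *Scn8a*, *Scn2b* and *Scn3b*. The comparisons at day 2 and day 5 share their controls within a genotype. In WT at day 2 the groups did not overlap for 5 genes, all lower, where 9.23% of all names were lower without overlap, and at day 5 for 7 genes beside 10.9%. In KO this held for 2 genes at day 2 beside 7.44%, and for 6 at day 5 beside 11%.

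Whether day 5 differed from day 2 was tested on the average of WT and KO, and 0 of 8 genes passed in limma, where 3.32% of all names did in either direction. At an unadjusted p under 0.05 there were 4, all lower at day 5, where 14.9% of all names were under it in either direction. *Scn11a* was lower at day 5 by 0.55 ± 0.19 (SE, 95% interval of the difference -0.95 to -0.16, adjusted p = 0.13), *Scn10a* differed by -0.40 (-0.72 to -0.08, adjusted p = 0.19), *Scn3b* by -0.35 (-0.60 to -0.11, adjusted p = 0.12) and *Scn2b* by -0.26 (-0.50 to -0.03, adjusted p = 0.27). *Scn8a* differed by 0.15 (-0.09 to 0.39) and *Scn1a* by -0.03 (-0.32 to 0.27). Without KO day 2 replicate 1, *Scn10a* (-0.51, adjusted p = 0.043) and *Scn11a* (-0.68, adjusted p = 0.034) passed, and without WT day 2 replicate 3 *Scn11a* did (-0.67, adjusted p = 0.043).

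Deletion of *Nfil3* was not seen to change any of the 8 genes. In limma 0 of 8 passed for KO minus WT in control, at day 2 or at day 5, for any difference between KO and WT over the 3 time points, or for the time*genotype interaction, and 0 had an unadjusted p under 0.05 in any of these tests. The background was as low, with 0%, 0.0109% and 0.0109% of all names called at the 3 time points, 0.0073% for any difference and 0% for the interaction, and at an unadjusted p under 0.05 it was 2.37% for any difference and 2.3% for the interaction, and 1.68%, 3.92% and 2.35% for KO minus WT at the 3 time points. Among the brightest probes the smallest unadjusted limma p for any difference between KO and WT was 0.40, for *Scn8a*. The smallest for the interaction was 0.35, for *Scn8a* also. Over all probes of the genes the smallest were 0.15, for the second *Scn8a* probe, and 0.22, for the second *Scn1a* probe, which was near background. The intervals show what the data could have missed. For *Scn10a* the difference was -0.01 in control (95% interval -0.45 to 0.44), 0.25 at day 2 (-0.19 to 0.70) and 0.00 at day 5 (-0.44 to 0.45). The value at day 2 ran from 0.04 to 0.47 over the settings tried, with an unadjusted limma p of 0.028 without KO day 2 replicate 1. For *Scn11a* it was -0.06 (-0.62 to 0.49), 0.15 (-0.40 to 0.71) and -0.01 (-0.56 to 0.55).

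Differences between KO and WT of the other bright genes were of the same size. *Scn8a* differed by 0.18 in control (95% interval -0.16 to 0.52), by -0.11 at day 2 (-0.45 to 0.23) and by 0.19 at day 5 (-0.15 to 0.53). At day 5 all 4 KO samples lay above all 4 WT samples for both probes of *Scn8a*, where 1.51% of all gene names were higher in KO without overlap. *Scn9a* differed by 0.14, 0.10 and 0.25 at the 3 time points, *Scn1a* by 0.17, -0.05 and 0.11, *Scn2b* by -0.04, 0.14 and 0.12 and *Scn3b* by -0.05, 0.11 and 0.12, and all these intervals included 0. Without KO day 2 replicate 4 the difference of *Scn2b* at day 2 was 0.31, with an unadjusted limma p of 0.049. The median difference of the 8 genes was -0.02 in the controls, 0.10 at day 2 and 0.12 at day 5, beside 0.01, 0.01 and 0.02 over all genes.

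**Figure D3:**
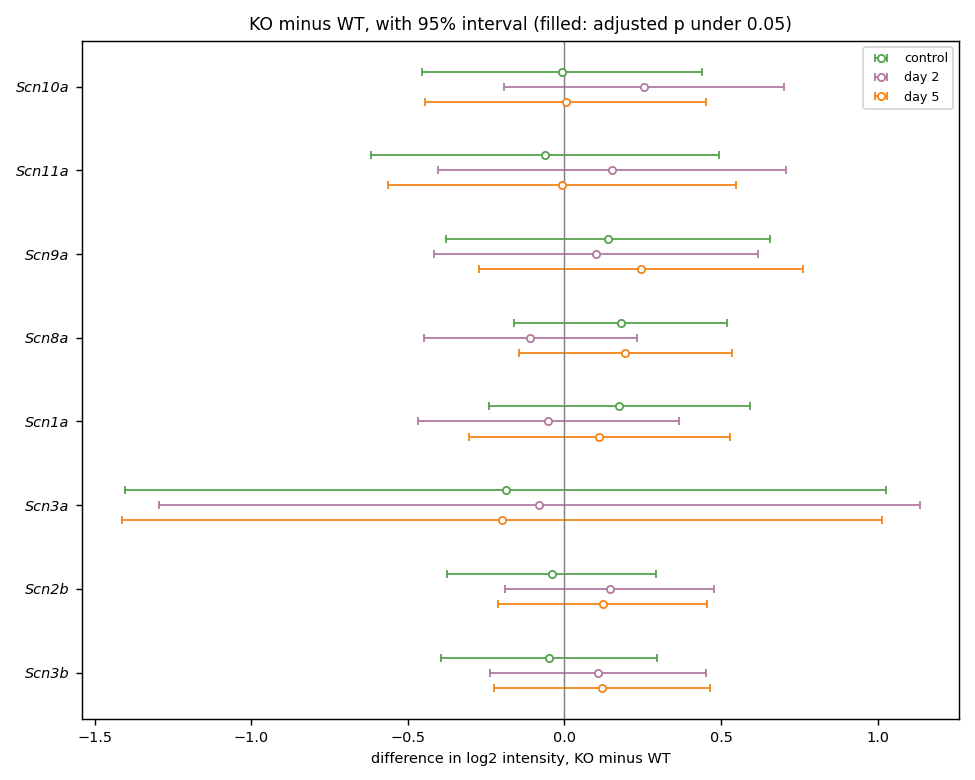
Difference in log2 intensity between KO and WT (x axis) for the brightest probe of 8 sodium channel genes, with the 95% interval, in control DRGs (green), at day 2 (purple) and at day 5 (orange). All points are open, since none passed the limma test, and each interval includes 0.

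NFIL3 binds a short palindrome, and the promoters of the channel genes were searched for it. RefSeq promoters of GRCm38.p6, 300 bases each that span the gene start, matched 7 of the 9 genes (*Scn1a*, *Scn9a*, *Scn10a*, *Scn11a*, *Scn2b*, *Scn4b* and, with 2 starts, *Scn8a*). The letters TTANGTAA, searched on both strands, were found in that of *Scn1a* and in none of the others, and 2.32% of 32851 promoters hold them. The letters TGACGT of the CREB and ATF core (7.51% of promoters), TGANTCA of AP-1 (7.81%) and TTCAGCACC of the left part of the REST element (0.371%) were found in none. The promoter of *Scn1a* (chr2:66440788-66441087, minus strand) is printed because it holds the match, in capitals. A match of letters is no measurement of binding.
Scn1a promoter: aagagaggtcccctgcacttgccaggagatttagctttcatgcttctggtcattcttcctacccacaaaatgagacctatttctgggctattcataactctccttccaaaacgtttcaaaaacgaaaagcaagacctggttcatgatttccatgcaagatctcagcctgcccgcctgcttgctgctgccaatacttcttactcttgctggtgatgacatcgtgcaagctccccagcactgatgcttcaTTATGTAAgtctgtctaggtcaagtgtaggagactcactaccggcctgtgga

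The members did not vary alike. Over the 24 samples *Scn10a* and *Scn11a* had a Pearson r of 0.98, and of 0.92 after the group means were taken out, while *Scn1a* and *Scn8a* had 0.94 and 0.88. *Scn3b* and *Scn8a* had 0.62, and 0.22 within groups. In this description samples share arrays, the lesion and the normalization. In the RefSeq table *Scn10a* and *Scn11a* are neighbours on chromosome 9, where *Scn2b* and *Scn4b* also lie side by side, and on chromosome 2 *Scn1a*, *Scn9a* and *Scn7a* follow each other and *Scn3a* lies next to *Scn2a*.

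Among 14492 other genes whose brightest probe was well above background in all samples, those closest in pattern were again named by Pearson r over the 24 samples. *Grik1*, a kainate receptor subunit, came first for both *Scn10a* (r = 0.98) and *Scn11a* (r = 0.98). The next for *Scn10a* were *Scn11a* and *Dgkh*, and for *Scn11a* they were *Isl2*, a transcription factor of sensory and motor neurons, and *Scn10a*. *Scn8a* was closest to *Kpna6*, *Etv1* and *Kndc1* (r = 0.97 to 0.98), *Scn1a* to *Slitrk4*, *Nap1l3* and *Synm* (0.96 to 0.97), *Scn9a* to *Kctd16*, *Ttll7* and *Abca5* (0.94 to 0.97), *Scn2b* to *Psen2*, *Pacsin1* and *Ank1* (0.96) and *Scn3b* to *Rasgef1a*, *Agtr1a* and *Kcnip4* (0.96 to 0.97). The dim *Scn3a* reached at most 0.80, with *0610011L14Rik*.

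Of the other sodium channel genes, *Scn7a*, a sodium-sensing channel of glia and neurons, was at 9.36, 9.72, 9.85 and 9.69 in the WT controls and at 9.22, 8.87, 9.21 and 9.32 in WT day 5, and at 9.73, 9.52, 9.83 and 9.93 in the KO controls and 9.80, 9.36, 9.40 and 9.44 in KO day 5. All WT day 5 samples lay below all WT controls, and KO day 5 overlapped with its controls through replicate 1. Averaged over WT and KO it fell by 0.38 ± 0.13 (SE) at day 5 (limma adjusted p = 0.041) and differed by -0.03 at day 2 (adjusted p = 0.91). *Scn2a1* (-0.09, adjusted p = 0.67) and *Scn4a* (-0.23, adjusted p = 0.14) did not pass at day 5.

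Genes whose products bind, anchor or traffic sodium channels moved in both directions. Of 14 on the array, 2 rose and 6 fell at day 5 in the average of WT and KO, and 2 rose and 5 fell at day 2, with medians of -0.14 and -0.24. Over all gene names 10.1% rose and 13% fell at day 5, and 9.41% rose and 12.7% fell at day 2. The count of 2 of 14 that rose is near the share of all names. Among the fibroblast growth factor homologous factors, which bind the tail of the alpha subunit and set its inactivation, *Fgf12* fell by 1.02 ± 0.15 (SE, limma adjusted p = 2.6e-05) and *Fgf13* by 0.93 ± 0.12 (adjusted p = 9.6e-06) at day 5, *Fgf14* differed by 0.05 (adjusted p = 0.83) and *Fgf11* rose by 0.98 ± 0.12 (adjusted p = 3.1e-06). The brightest probe of *Fgf11* was at 8.11, 8.42, 8.54 and 7.72 in the WT controls and at 9.20, 9.03, 9.27 and 9.46 in WT day 5, without overlap. Its second probe was at 4.95 to 6.50 in all samples. Of the 4 probes of *Fgf13* the dimmest went the other way and rose by 0.41 (adjusted p = 0.022).

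*S100a10* (p11), which carries Nav1.8 to the membrane, rose by 0.53 at day 2 and by 0.84 ± 0.07 (SE) at day 5 (limma adjusted p = 1.2e-08), and every lesion sample lay above every control. Its controls were at 14.41 to 14.60 and its day 5 samples at 15.22 to 15.52. *Cntn1*, a cell adhesion molecule that raises the surface density of several alpha subunits, fell by 0.72 at day 2 and by 0.71 at day 5. *Nedd4l*, a ubiquitin ligase that removes channels from the membrane, fell by 0.80 at day 5 (adjusted p = 0.00010), while *Nedd4* differed by -0.06 (adjusted p = 0.77). *Dpysl2* (CRMP2), a partner of Nav1.7, and *Pdzd2*, a partner of Nav1.8, both fell by 0.37. The scaffold and adhesion genes of the initial segment and node, *Ank3*, *Nfasc*, *Nrcam* and *Cntn2*, differed by -0.22 to 0.10 at day 5 and none passed.

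**Figure D4:**
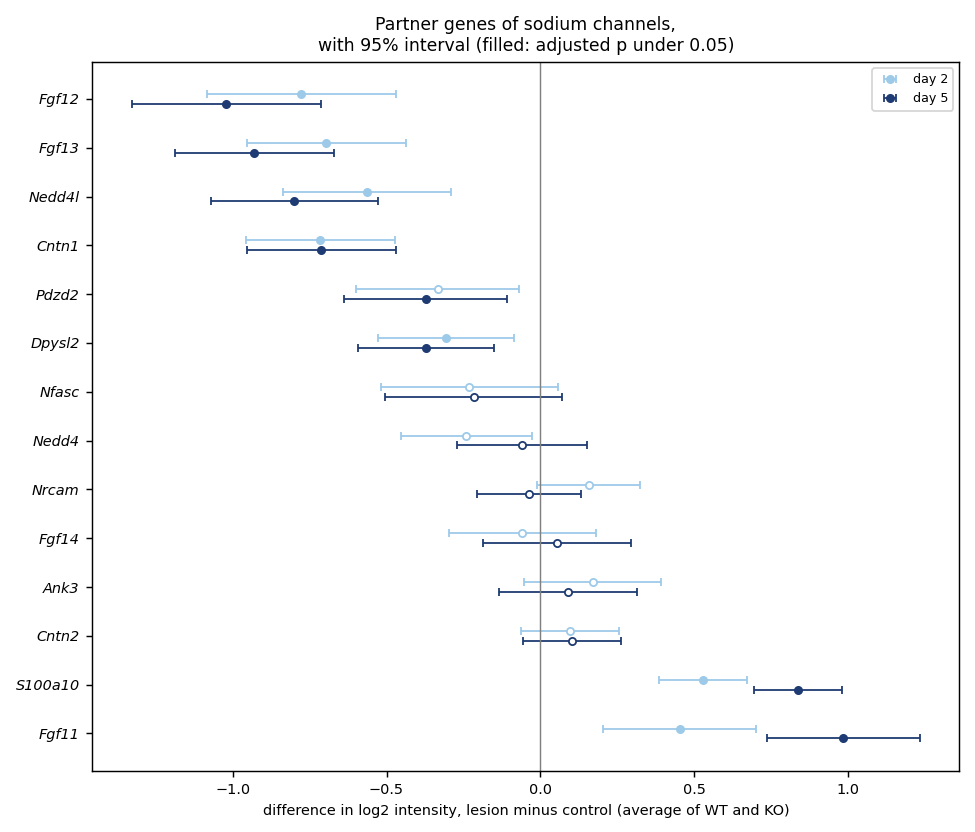
Difference in log2 intensity between lesion and control, averaged over WT and KO (x axis), with the 95% interval, for 14 partner genes of sodium channels, at day 2 (light) and day 5 (dark). Filled points have a limma adjusted p under 0.05. *Fgf12* and *Fgf13* show the largest falls at day 5, and *Fgf11* and *S100a10* are the 2 genes that rose.

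The falls of the channel genes went with changes in the markers of cell types. Of 12 sensory neuron markers 7 fell and 1 rose at day 5 in the average of WT and KO, with a median of -0.48, beside -0.80 for the channel genes. *Rbfox3* (NeuN) fell by 0.73, *Snap25* by 0.77 and *Nefh*, the heavy neurofilament of large neurons, by 0.84, whereas *Tubb3* rose by 0.44 and *Uchl1* differed by 0.05. The mean log2 intensity of the 12 markers was 12.84 to 13.10 in the controls and 12.53 to 12.65 at day 5. All 7 macrophage markers rose at day 5, with their mean at 7.64 to 8.33 in the controls and at 9.21 to 9.63 at day 5. Of 8 markers of satellite glia and Schwann cells 2 rose and 2 fell at day 5. Over all gene names 10.1% rose and 13% fell at day 5 in the same average. The motor neuron marker *Mnx1* was marked well above background in 0 of 24. The part of these cell types in the falls of the channel genes was not tested.

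The 5 injury markers (*Atf3*, *Sprr1a*, *Gal*, *Npy* and *Gap43*) all rose at both days. Their mean was lowest among lesion samples in KO day 2 replicate 3, at 12.31, which was also the lesion sample with the highest mean of the 8 channel genes, at 9.96, within the range of the controls (9.92 to 10.11). The 4 controls that shared an array with a lesion sample had an injury mean of 8.83 to 10.76 against 7.68 to 7.81 in the other 4. Their channel means lay between 9.92 and 10.11, and those of the other 4 between 9.97 and 10.11.

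**Figure D5:**
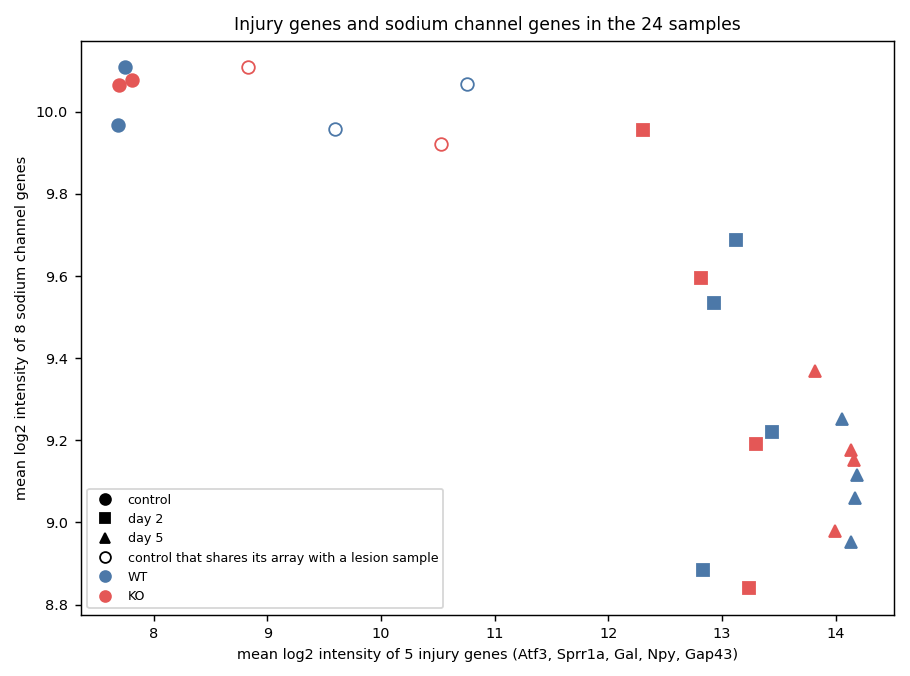
Mean log2 intensity of 8 sodium channel genes (y axis) against that of 5 injury genes (x axis) in the 24 samples, with WT in blue, KO in red, controls as circles, day 2 as squares and day 5 as triangles. Open circles are the 4 controls whose array also held a lesion sample. They lie to the right of the other controls at the same height, and the day 5 samples sit at the lower right.

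Slide and dye each held several groups. At day 5 every gene but *Scn3a* was lower than control within each slide and dye that held both groups. For *Scn11a* the difference in WT at day 5 was -1.41 among Cy3 samples and -1.45 among Cy5 samples, and -1.46 and -1.41 within the 2 slides that held both groups. In KO at day 5 it was -1.36 and -1.39 by dye and -1.30 and -1.33 by slide. For *Scn8a* in WT at day 5 it was -1.02 and -0.70 by dye and -0.96 and -0.72 by slide. In KO at day 2 the difference varied between slides. Slide 1 held only replicate 3 of that group and slide 3 only replicate 4, so slide and sample cannot be told apart there. The difference on slide 1 was -0.02 for *Scn11a*, -0.13 for *Scn10a* and -0.78 for *Scn8a*. For *Scn11a* it was -0.80 on slide 2 and -1.19 on slide 3. On slide 1 it was also below 0 for *Scn2b* (-0.10) and *Scn1a* (-0.39), and above 0 for *Scn3b* (0.22), *Scn9a* (0.10) and *Scn3a* (0.05). For *Scn3a* the difference in WT at day 5 was 0.24 among Cy3 and -1.72 among Cy5 samples, and at day 2 it was 0.76 and -2.07.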

How the data were processed

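The data are Agilent 4x44K arrays (12, on 3 slides) of dissected L4 and L5 ganglia. The Cy3 and Cy5 channels of an array held different samples and were used as single colours, which gave 24 samples, 2 per group and dye. Scans were read by the authors in Agilent Feature Extraction 10.7.3.1. The deposited spot values are linear intensities of foreground and background that were not normalized. The software's own processed signals, intensities with background and dye corrected, were deposited too and served as an alternative. Groups came from the sample titles, and the study's methods call the 4 samples of a group independent.

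Following those methods, limma 3.58.1 (R 4.3.3, statmod 1.5.0, with the data.table package in version 1.17.8) was used for the Edwards background correction, on mean foreground and median background, and for quantile normalization over the 24 channels. This makes values relative to the other genes. Of 45018 spots per array 43379 were not controls. Outlier spots (0.106% to 0.835% per sample) were dropped, so that 417 probe values are missing. Repeat spots were averaged on the log2 scale. The linear model (lmFit, eBayes) had 6 group means, and Benjamini-Hochberg adjustment ran over 41174 probes. A gene passed when its brightest probe had an adjusted p under 0.05. Averages over WT and KO weight both equally. Between 54.6% and 72.4% of probes in a sample were well above background, no spot was saturated, and the number of arrays limits the precision.

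The genes and lists were chosen with earlier results of these data known. By the rule used, the genes named are the sodium channel subunits with all their probes, *Nfil3*, the other sodium channel genes, 15 partner genes (of which *Sptbn4* was not analysed here) and, for each subunit, up to 3 genes of most similar pattern. Cell type markers came from lists, and those named among them were picked after their values were seen. Of 4 markers of endothelium and fibroblasts 0 passed at day 5 in the average of WT and KO and *Pecam1* rose by 0.29 at day 2, and of 3 muscle markers 0 passed at either day. Scripts were tested on simulated data. Alternatives were no or normexp (offset 50) background correction, median foreground, processed signals, loess with Aquantile, outliers kept, a filter on dim probes, averaged probes, an intensity trend, terms for dye, slide, array, array partner or replicate number, each sample left out and, chosen after seeing the data, the 4 controls on arrays with lesion samples left out. Some results on genes of these lists are not reported here. The time course test in SAMR was not run.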

Additional observations from a re-analysis of the deposited data

Results flagged for a closer look

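In 3 of 48 sets of 4 samples, 1 set for each gene and group, 1 sample lay far from the rest, with a gap to its nearest neighbour that, as a share of the range of the group, was above Dixon's 95% critical value for 4 samples. Chance alone marks about 1 in 20 sets in this way, so the count is near that share. *Scn1a* in WT day 5 replicate 2 was at 7.47, below 7.65 to 7.68 in the other samples of the group. *Scn1a* in KO day 5 replicate 1 was at 8.10, above 7.56 to 7.63 in the others, and this is the sample in which the muscle gene *Acta1* was at 10.69. Whether the muscle signal bears on the *Scn1a* value was not tested. *Scn2b* in KO day 5 replicate 3 was at 9.62, below 9.69 to 9.70 in a group with an SD of 0.04.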

How the results depend on the processing

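The counts of channel genes that passed stayed within 1.5 times their value in 177 cases and moved further in 3 under other settings, and in 284 and 4 with 1 sample left out, and no channel gene passed as higher after the lesion under any of these. These cases include the counts for KO minus WT, for any difference and for the interaction, which were 0 in every setting. A count that went from 6 to 4 is within 1.5 times. With an intensity trend in the fit 5 genes passed at day 2 in KO, without the 4 controls on arrays with lesion samples 2 passed at day 2 in WT, against 4 at day 5 in either genotype and 6 at day 5 in the average, and with array as a random block 1 (*Scn11a*) passed for day 5 minus day 2. With each sample left out in turn the counts ran from 2 to 5 at day 2 in WT (2 without WT day 2 replicate 3), from 5 to 7 at day 5 in WT, from 3 to 5 at day 2 in KO (5 without KO day 2 replicate 3), from 5 to 6 at day 5 in KO, from 5 to 7 in the average at day 2, and from 0 to 2 for day 5 minus day 2 (2 without KO day 2 replicate 1, 1 without WT day 2 replicate 3). With 1 sample left out the count at day 5 in the average was 7 throughout, and the counts for KO minus WT and the interaction stayed at 0. With the probes of a gene averaged *Scn1a* lost its calls and *Scn3a* at day 5 in WT changed sign to 0.078 (adjusted p = 0.943). The sign of day 5 minus day 2 changed for *Scn3a* without background correction (0.0029) and with 1 sample left out (range -0.46 to 0.10), and for *Scn1a* with 1 sample left out (range -0.13 to 0.061), and none of the changed signs passed. The cause of these changes was not tested. Replicate numbers are shared between groups, but samples with the same number did not deviate together (median r of 0.06 over 60 pairs, from -0.58 to 0.59), so they were not taken as pairs. With the replicate block 4, 6, 3, 6, 6, 7 and 0 genes passed in the 7 lesion comparisons, in the order WT day 2, WT day 5, KO day 2, KO day 5, average at day 2, average at day 5 and day 5 minus day 2, which changed no count, and for KO minus WT 0 passed. Samples on the same array had a median r of 0.43, and the main fit took no account of this. With array as a random block the correlation within arrays was 0.27. In that fit *Scn9a* passed at day 5 in WT (adjusted p = 0.036) and *Scn3b* no longer passed in the average at day 2 (adjusted p = 0.112). Signal over background limits *Scn3a* most.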
